A study of Mus musculus with 6 samples.

Results

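The crystallin genes examined here were 10 genes of the P7 retina: *Cryaa* and *Cryab* of the alpha family, *Cryba1*, *Cryba2*, *Cryba4*, *Crybb1*, *Crybb2*, and *Crybb3* of the beta family, and *Crygb* and *Crygf* of the gamma family. They were taken by symbol from the 21744 genes of the table, of which 15200 passed a filter on low values (a mean of at least 0.1 FPKM, fragments per kilobase of transcript, scaled to the mapped fragments of the library) and were tested. All 10 passed it, and 3 of them were listed at 0 in at least 1 library. The list was chosen by a look at these same FPKM values, so the levels below are a description, and no test was run on how far they move together.

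The retinas came from mice of a C57BL/6J; 129S6 mixed background at postnatal day 7 (P7). RNA from the retinas of each mouse made 1 library, and there were 3 control and 3 *Lhx4* null libraries, called control 1 to 3 and null 1 to 3 here. LHX4 is a LIM-homeodomain transcription factor of developing bipolar cells. In the study, *Lhx4* null stands for *Lhx4* tdT/loxP; *Six3-Cre*, where 1 allele carries a tdTomato knock-in and Cre driven by *Six3* acts on the loxP allele in the retina, and control for wild type or *Lhx4* loxP/+ mice in its physiology. For its tdTomato images the study used *Lhx4* tdT/+ and *Lhx4* loxP/tdT mice as controls. The control genotype of the RNA libraries was not stated. According to the methods, the retina was taken by peeling the retinal pigment epithelium off the eyecup, and for immunostaining the eyecups had the cornea and lens removed.

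Crystallins are the abundant soluble proteins of the lens, where they give transparency and refractive power. The alpha crystallins are small heat shock proteins that act as chaperones, and the beta and gamma crystallins are structural proteins that share a Greek key fold. Some, *Cryab* above all, are also made outside the lens, in glia, muscle, and the retina, and retinal crystallin transcripts are known to respond to injury and stress. Lens fibre cells express crystallin genes under factors that include MAF, PAX6, SOX2, and PROX1.

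*Lhx4* itself had 20.9, 23.8, and 19.1 FPKM in control 1 to 3 and 31.2, 30.3, and 29.0 FPKM in null 1 to 3. It was higher, not lower, in the libraries labelled *Lhx4* null (log2 fold change 0.51, adjusted p = 0.0978 by limma), and a value over the whole gene does not separate the deleted part from the rest. *Bhlhe23*, a bHLH factor gene picked here after its values were seen, had 10.2, 13.0, and 10.6 FPKM in the controls and 0.814, 0.563, and 0.830 FPKM in the null libraries, so the labelled groups were apart in that gene. The null libraries were shallower, with 46.7 to 65.9% of the depth of the deepest library against 76.9 to 100% for the controls, as recovered from the steps of the lowest values. Control 2 stood apart in the Y-linked genes: *Eif2s3y* had 68.5, 25.1, and 0.833 FPKM in control 1 to 3 and 0.145, 0.113, and 72.7 FPKM in null 1 to 3. For *Ddx3y*, *Kdm5d*, and *Uty*, too, control 2 lay between the high libraries (control 1 and null 3) and the low ones. The methods give 1 mouse per library, and whether control 2 also held RNA of another mouse was not tested. Because control 2 was also the library highest in crystallins, the genotype and correlation results are given with and without it.

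*Cryaa*, which encodes alphaA-crystallin of the lens, varied more across libraries than any other member without a library at 0. It had 0.457, 6.57, and 0.0258 FPKM in control 1 to 3 and 0.721, 3.24, and 0.0781 FPKM in null 1 to 3. Control 2 and null 2 stood highest, 1 library of each genotype, and the highest level was 255 times the lowest. Control 2 had 27.2 times the mean of the other controls and null 2 had 8.11 times the mean of the other null libraries. In fragments, recovered from the smallest step of the gene, these levels were equal to 17.0, 196, and 1 in the controls and 13.1, 72.3, and 2.00 in the null libraries, so the high values did not rest on a few fragments. The genotype means of 2.35 ± 3.66 and 1.35 ± 1.67 FPKM (SD, n = 3 for control and null) differed by less than the spread within either genotype.

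*Cryab* encodes alphaB-crystallin, a chaperone found in many tissues. Its levels were 11.5, 16.6, and 10.004 FPKM in control 1 to 3 and 16.7, 10.4, and 12.9 FPKM in null 1 to 3. It had the highest level of the 10 genes in every library, and its highest level was only 1.67 times its lowest. The order also differed from that of *Cryaa*: null 1 was highest, control 2 came next, and null 2 was lower than either of the other null libraries. In the annotation, 17.0% of the exon bases of *Cryab* overlap the neighbouring *Hspb2*, which had at most 0.137 FPKM, and 13.2% of those of *Cryaa* overlap AC090881.2.

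The promoter of *Cryaa* is shown because it holds TGCTGAC, a core of the element bound by MAF factors, which was searched on both strands in the 250 bases before the RefSeq start of each member. In GENCODE vM21 the gene spans chr17:31677807-31681733, so the bases shown lie before the RefSeq start but inside the GENCODE gene. The 30 bases around the motif, chr17:31677812-31677841 on the plus strand (RefSeq, GRCm38.p6), have it in capitals, at bases -108 to -102 from the RefSeq start. TATATA lies at bases -29 to -24.
Cryaa: agcattccagcTGCTGACggtgcagcctct
The RefSeq promoter table held 9 of the 10 members, all but *Cryab*. TGCTGAC occurred in 4 of these 9, *Cryaa*, *Cryba1*, *Cryba4*, and *Crybb1*, against 3.81% of 32851 mouse promoters. A match is a description of the sequence, and binding was not measured.

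**Figure D1:**
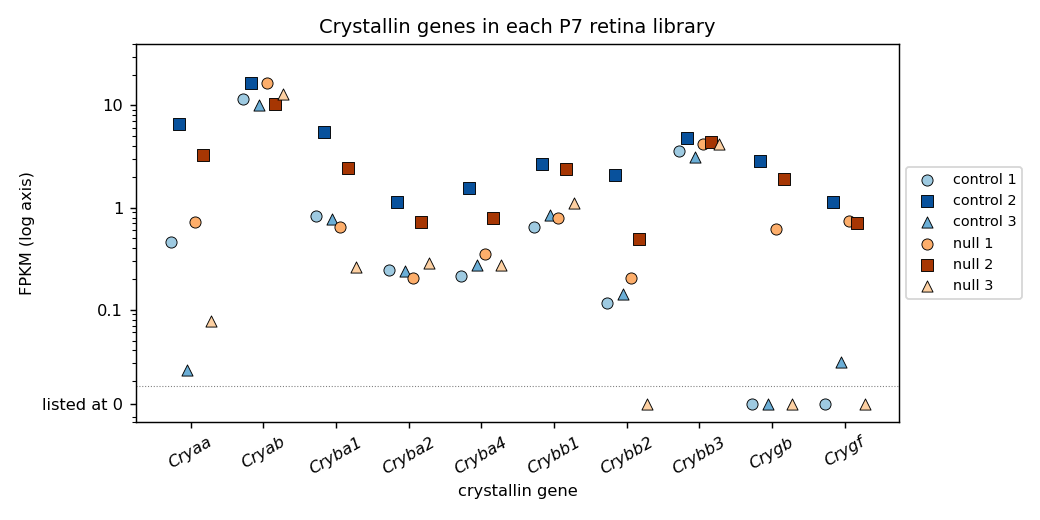
FPKM (log axis) of the 10 crystallin genes in each library, with control libraries in blue and libraries labelled *Lhx4* null in orange, and with values of 0 drawn below the dotted line. The squares, control 2 and null 2, are the 2 highest points for 8 of the 10 genes, whereas the points of *Cryab* and *Crybb3* lie close together.

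The 6 beta-crystallin genes encode structural proteins that assemble into dimers and larger oligomers. *Cryba1*, which encodes betaA3/A1-crystallin, had 0.821, 5.55, and 0.772 FPKM in control 1 to 3 and 0.651, 2.43, and 0.260 FPKM in null 1 to 3. *Crybb2*, which encodes betaB2-crystallin, had 0.115, 2.11, and 0.141 FPKM in the controls and 0.204, 0.496, and 0 FPKM in the null libraries. In both genes control 2 was highest and null 2 second, and the genotypes overlapped. Control 2 was 6.97 times the mean of the other controls for *Cryba1* and 16.4 times for *Crybb2*, and null 2 was 5.33 and 4.86 times the mean of the other null libraries.

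*Cryba2*, which encodes betaA2-crystallin, had 0.247, 1.14, and 0.237 FPKM in control 1 to 3 and 0.206, 0.725, and 0.287 FPKM in null 1 to 3. *Cryba4*, which encodes betaA4-crystallin, had 0.213, 1.55, and 0.272 FPKM in the controls and 0.354, 0.795, and 0.274 FPKM in the null libraries. *Crybb1*, which encodes betaB1-crystallin, had 0.651, 2.65, and 0.850 FPKM in the controls and 0.793, 2.38, and 1.11 FPKM in the null libraries. The same pair of libraries led all 3 genes, with smaller ratios of highest to lowest level (5.52, 7.28, and 4.07) than the 21.3 of *Cryba1*.

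*Crybb3*, which encodes betaB3-crystallin, was the exception in the beta family. It had 3.57, 4.85, and 3.16 FPKM in control 1 to 3 and 4.20, 4.39, and 4.20 FPKM in null 1 to 3. Control 2 and null 2 were still the 2 highest libraries, but the highest level was only 1.53 times the lowest and null 2 had 1.04 times the mean of the other null libraries. *Crybb3* was the highest beta crystallin in 5 of the 6 libraries, and in control 2 *Cryba1* was above it.

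*Cryba4* and *Crybb1* are neighbours on chr5, at chr5:112246493-112252518 and chr5:112255815-112269585 (GENCODE vM21, GRCm38), and are transcribed away from each other. *Crybb2* and *Crybb3* also lie near each other, at chr5:113058258-113070117 and chr5:113075839-113081584, both on the minus strand. The adjacent *Crybb2* and *Crybb3* thus differed in range, with 16.4 times the other controls in control 2 for *Crybb2* and 1.44 times for *Crybb3*. The 150 bases before the RefSeq start (GRCm38.p6) are shown for the 3 beta genes with TGCTGAC and for *Crybb3*, which varied least. Capitals mark TGCTGAC and TATAAA, a form of the TATA box, and the stretches are, in order, chr11:77725294-77725443 on the minus strand, chr5:112252519-112252668 on the minus strand, chr5:112255670-112255819 on the plus strand, and chr5:113081585-113081734 on the minus strand.
Cryba1: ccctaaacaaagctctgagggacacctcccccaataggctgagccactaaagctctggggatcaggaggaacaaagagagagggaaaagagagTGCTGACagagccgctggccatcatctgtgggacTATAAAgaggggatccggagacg
Cryba4: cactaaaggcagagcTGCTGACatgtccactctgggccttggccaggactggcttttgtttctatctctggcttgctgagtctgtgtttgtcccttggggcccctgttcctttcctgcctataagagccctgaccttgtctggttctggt
Crybb1: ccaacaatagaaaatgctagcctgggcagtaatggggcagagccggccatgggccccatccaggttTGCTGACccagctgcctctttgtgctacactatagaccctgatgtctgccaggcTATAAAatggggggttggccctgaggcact
Crybb3: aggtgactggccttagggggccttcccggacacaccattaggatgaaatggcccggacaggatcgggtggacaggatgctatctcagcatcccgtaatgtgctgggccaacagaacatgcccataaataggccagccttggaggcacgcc
*Cryba1* held TGCTGAC at bases -57 to -51 and *Crybb1* at bases -84 to -78, each upstream of TATAAA. *Cryba4* held TGCTGAC at bases -135 to -129 and again at bases -182 to -176, outside the stretch shown. *Cryba2*, *Crybb2*, and *Crybb3* held neither TGCTGAC nor a TATA box of either form searched in the 250 bases before the start, which says nothing of the factors themselves. Control 2 and null 2 were on top for *Cryaa*, *Cryba1*, *Cryba4*, and *Crybb1*, which hold TGCTGAC. They were also on top for *Cryba2*, *Crybb2*, *Crybb3*, and *Crygb*, which lack it, but not for *Crygf*, which lacks it too. Whether the motif bears on the levels was not tested.

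The gamma crystallins are monomeric proteins of the dense lens core. *Crygb*, which encodes gammaB-crystallin, was listed at 0 in control 1, control 3, and null 3, and had 2.86 FPKM in control 2, 1.93 FPKM in null 2, and 0.611 FPKM in null 1. *Crygf*, which encodes gammaF-crystallin, was listed at 0 in control 1 and null 3, and had 0.0306 FPKM in control 3, 1.13 FPKM in control 2, 0.703 FPKM in null 2, and 0.744 FPKM in null 1. Both genes were therefore seen mainly in control 2, null 2, and null 1, and null 1 was second for *Crygf*. The genotypes overlapped for both.

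*Crygb* lies at chr1:65080219-65082288 on the minus strand and *Crygf* at chr1:65926520-65928307 on the plus strand (GENCODE vM21, GRCm38). Reads can be shared within this family: 22.8% of the 100-base windows of *Crygb* occur in another crystallin gene, mostly *Crygc*, and 10.05% of those of *Crygf*, mostly in *Cryge*. The share was 0 for the alpha and beta members, so single gamma genes are less certain than their sum. The 150 bases before the RefSeq start (GRCm38.p6) are shown with TATATA in capitals, since the 6 genes *Cryga* to *Crygf* have it in common. They are chr1:65082291-65082440 on the minus strand and chr1:65926372-65926521 on the plus strand.
Crygb: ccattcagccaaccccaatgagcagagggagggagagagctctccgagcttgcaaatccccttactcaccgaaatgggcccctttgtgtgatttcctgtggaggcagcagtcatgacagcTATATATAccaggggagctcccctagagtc
Crygf: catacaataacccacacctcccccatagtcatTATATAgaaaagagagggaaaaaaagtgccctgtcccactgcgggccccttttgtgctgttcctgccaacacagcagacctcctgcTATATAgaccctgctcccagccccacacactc
TATATA was found in 5.25% of all promoters, and TATATA or TATAAA in 15.6% of all promoters and in 5 of the 9 members, *Cryaa*, *Cryba1*, *Crybb1*, *Crygb*, and *Crygf*. The promoter of *Crygf* shares a run of 52 bases with that of *Cryge*, and no other promoter of the table holds it.

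The other gamma and S crystallins, which are not among the 10 genes, were read in the same libraries. Not all of them are independent of the members: 15.5% of the 100-base windows of *Crygc* occur in another crystallin gene, mostly *Crygb*. The share was 0 for *Cryga*, *Crygn*, and *Crygs*. *Cryge* had 0, 4.22, and 0.0282 FPKM in control 1 to 3 and 0.184, 2.59, and 0 FPKM in null 1 to 3. *Crygd* had 0, 3.46, and 0 FPKM in the controls and 0.463, 1.97, and 0.240 FPKM in the null libraries. *Cryga*, *Crygc*, and *Crygn* also had control 2 and null 2 as the highest libraries, with 2.42, 1.48, and 0.172 FPKM in control 2. The pair led 5 of these 6 genes, against 6.70% of the 15200 genes tested. Of the 5, *Crygn* was below the filter and so is not among the genes tested. Its levels equalled only 3.04 fragments in control 2 and 2.02 in null 2. The exception was *Crygs*, the gamma-like crystallin of later fibres, where control 2 (1.02 FPKM) was followed by null 1 (0.421 FPKM). Summed over *Cryga* to *Crygf*, the level was 0.161, 15.6, and 0.1996 FPKM in the controls and 2.75, 10.7, and 0.414 FPKM in the null libraries.

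Across the 10 members, control 2 was the highest library for 9 genes and lay above both other controls for all 10. Control 2 and null 2 were the top pair for 8 of the 10, all but *Cryab* and *Crygf*, whereas the pair led 6.70% of the 15200 genes tested. Null 1 came next in part of the family, above null 3 for 7 genes and above both control 1 and control 3 for 7. The mean of the centred log2 values over the 10 genes was -0.78, 1.74, and -0.93 in control 1 to 3 and 0.03, 0.97, and -1.04 in null 1 to 3. The order of the libraries thus ran across genotype, with 1 control and 1 null library at the top and 2 control libraries and null 3 at the bottom.

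Few genes of the retina ranged as widely as the crystallins that varied most. A mean of 0.5 FPKM or more was reached by 13424 genes, of which 23 had a range of at least 4 on the log2(FPKM + 0.1) scale, and 5 of them were crystallins (*Cryaa*, *Cryge*, *Crygd*, *Crygb*, and *Crybb2*), although 11 crystallins had such a mean. The median range of all genes tested, not matched for level, was 0.41 on this scale. The members were chosen by these same values. *Crybb2* (2.11 FPKM in control 2 and at most 0.496 FPKM elsewhere) and *Crygb* (0 in 3 libraries) reached the mean through their highest libraries. So did *Cryaa*, *Crygd*, and *Cryge*, with at most 0.721, 0.463, and 0.184 FPKM outside control 2 and null 2. The count is therefore a description that the choice and the filter helped to set.

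**Figure D2:**
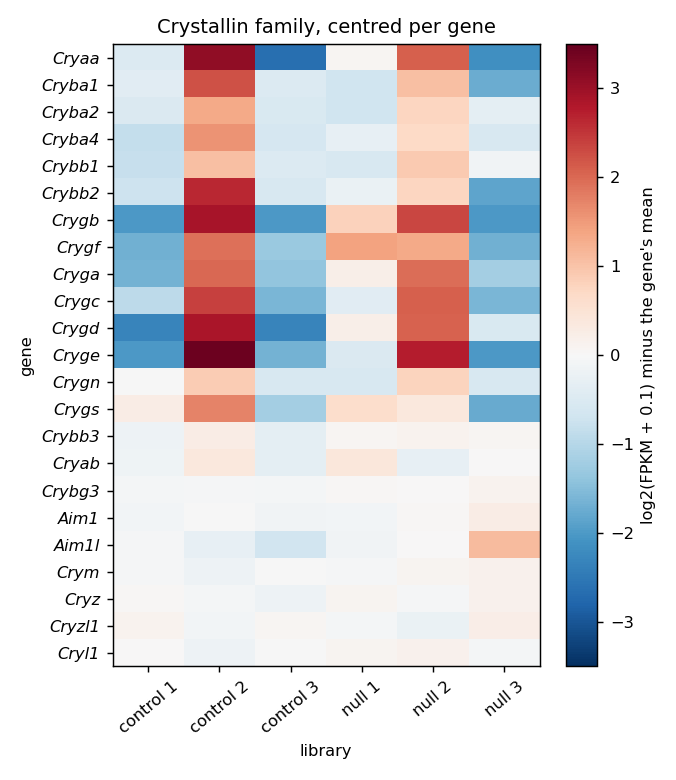
Each cell is a gene's log2(FPKM + 0.1) in 1 library minus its mean over the 6 libraries, for the crystallin family and the enzymes named after crystallins, with red above and blue below the mean. Control 2 and null 2 are red from *Cryaa* down to *Crygn*, and from *Crybb3* on most rows are close to 0.

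The alpha, beta, and gamma genes moved together over the 6 libraries. Pearson's r of log2(FPKM + 0.1) between 2 members had a median of 0.795 over the 45 pairs, with a range of 0.149 to 0.975, and the median Spearman rank correlation was 0.6. *Cryaa* had a median r of 0.870 with the beta genes and 0.896 with the gamma genes, beta with gamma genes had 0.817, and *Crygb* with *Crygf* had 0.968. *Cryab* was the weakest partner, with a median r of 0.387 over its 9 pairs, and without *Cryab* and *Crybb3* the remaining 28 pairs had a median of 0.869. All members share the same 6 libraries and their depth, so these values describe the libraries and carry no p. The median r was 0.642 without control 2 and 0.800 without null 2. With both left out it was 0.304 over 4 libraries, with a range of -0.958 to 0.992, so the members moved together far less without the pair.

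The genotype comparison asked whether the crystallins followed the loss of *Lhx4*. With limma on log2(FPKM + 0.1), 0 of the 10 members passed an adjusted p of 0.05, against 0.224% of all genes tested (34 of 15200), and 0 of 10 had an unadjusted p under 0.05, against 8.15%. The adjusted p of the members ran from 0.799 to 0.999. None had genotypes without overlap, against 14.2% of all genes. Of the 10, 6 were higher and 4 lower in the libraries labelled *Lhx4* null, against 53.3% of all genes higher, and the members' median log2 fold change was 0.05, against 0.01 over all genes.

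The precision of these differences was low except for *Cryab* and *Crybb3*. The standard errors on the log2 scale ran from 0.16 for *Crybb3* to 1.45 for *Crygb* and *Cryaa*, against a median of 0.12 over all genes. For *Crybb3* the log2 fold change was 0.16, with a 95% confidence interval of -0.20 to 0.52, and for *Cryab* it was 0.07, with an interval of -0.42 to 0.57. For *Cryaa* the value was 0.02, with an interval of -3.31 to 3.35, which leaves room for a large change either way. With the replicate number as a block its interval was -0.81 to 0.85, but that fit assumes a pairing that the labels do not state. *Cryba1* and *Crybb2* had the lowest values, -0.91 (interval -2.87 to 1.05) and -0.89 (interval -3.06 to 1.29), and *Crygb* and *Crygf* the highest, 0.76 (interval -2.57 to 4.10) and 0.69 (interval -1.81 to 3.19). *Cryba2*, *Cryba4*, and *Crybb1* had -0.19, -0.11, and 0.15.

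The direction of the members' differences depended on which libraries were included. Without control 2, 9 of the 10 members had the higher mean in the null group and their median log2 fold change was 0.54. Without null 2, 3 of the 10 were higher and the median was -0.38. The controls low in crystallins moved it as well: 3 of the 10 were higher without control 1 (median -0.22) and 2 of the 10 without control 3 (median -0.25). With control 2 and null 2 left out together, 8 of the 10 were higher, and the median was 0.31. With 2 libraries against 2, 0 members passed the adjusted threshold, but only 1 of all 15220 genes tested did, so that count says little. *Cryab* then had a log2 fold change of 0.45 (interval 0.08 to 0.82, adjusted p = 0.781 by limma). In that fit 4 of the 10 members had genotypes without overlap, against 37.1% of all genes.

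**Figure D3:**
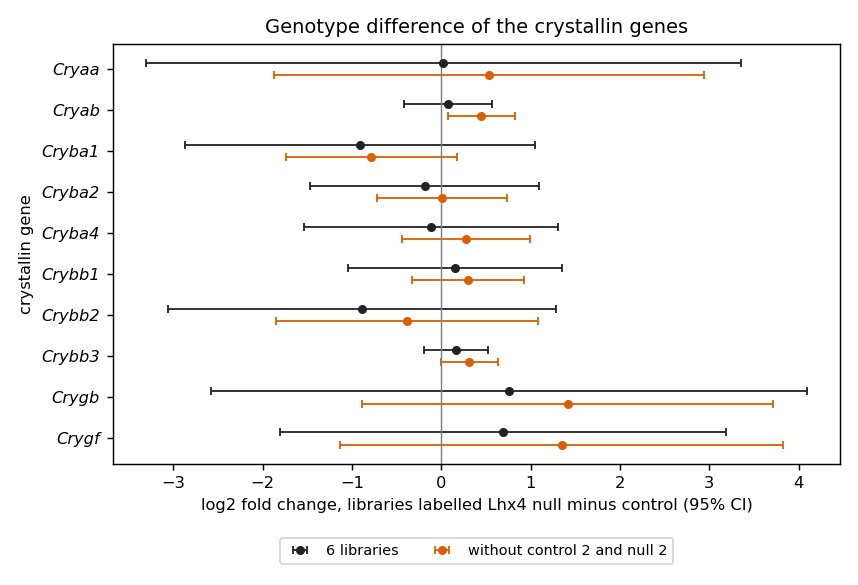
Log2 fold change (libraries labelled *Lhx4* null minus control, on the log2(FPKM + 0.1) scale) with its 95% confidence interval for each crystallin gene, from all 6 libraries (black) and without control 2 and null 2 (orange). All black intervals cross 0, and without the pair the interval of *Cryab* lies above 0 although its adjusted p was 0.781.

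Lens fibre markers were read beside the crystallins, because the lens borders the dissected tissue. The 11 markers summed to 2.49, 2.72, and 3.00 FPKM in control 1 to 3 and to 2.95, 3.04, and 2.95 FPKM in null 1 to 3, so control 2 lay between the other controls and the null libraries differed little. Most of this sum was *Bfsp2* (1.15 to 1.90 FPKM) and *Bfsp1* (0.383 to 0.915 FPKM), which encode the beaded filament proteins. The sum therefore says little of the low markers. *Grifin*, another marker of the list, had 0.061, 0.155, and 0.117 FPKM in control 1 to 3 and 0.256, 0.311, and 0.089 FPKM in null 1 to 3. Control 2 and null 2 were thus its highest library within each genotype. The 2 libraries were the top pair for 1 of the 11 markers, *Lim2*. *Mip*, the lens water channel, had at most 0.0532 FPKM in any library and was listed at 0 in control 2. *Lim2*, a fibre membrane protein, had 0.194 FPKM in null 2, 0.0484 FPKM in control 2, and at most 0.0368 FPKM elsewhere, and *Gja3*, a fibre connexin, had 0.0332 FPKM in null 2 and 0 in the others. *Dnase2b*, the nuclease that degrades fibre nuclei, and *Foxe3*, a lens epithelial factor, were listed at 0 in all 6 libraries. Of the 11 markers, 5 were tested and 0 passed. Whether lens RNA had a part in the crystallin levels was not tested beyond these values, and in bulk tissue a change in the number of cells of a type and a change in RNA per cell cannot be told apart.

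**Figure D4:**
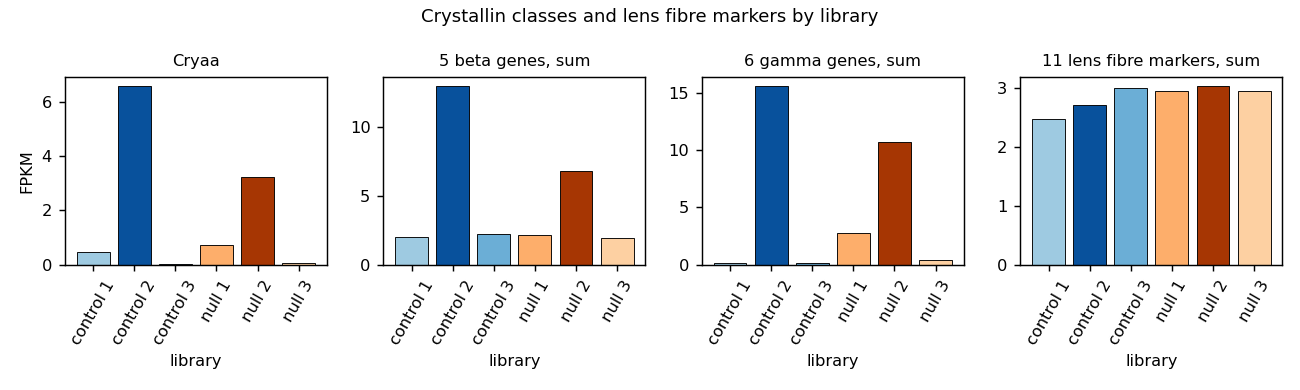
Summed FPKM by library for *Cryaa*, for the 5 beta members without *Crybb3*, for the 6 genes *Cryga* to *Crygf*, and for the 11 lens fibre markers, each on its own linear axis from 0. The 3 crystallin panels share the same tall bars, control 2 and null 2. The sum of the lens fibre markers, mostly *Bfsp2* and *Bfsp1*, is level at 2.49 to 3.04 FPKM.

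Of 15 genes for factors known to regulate crystallins, control 2 and null 2 were the top pair for 1, *Hsf4*. In the genotype comparison 13 were tested and 0 passed the adjusted threshold, and *Pitx3* and *Foxe3* were below the filter. An unadjusted p under 0.05 by limma was found for 4 (*Pax6*, *Maf*, *Sox2*, and *Six3*), against 8.15% of all genes tested. *Maf*, whose product binds the element searched above, had 5.01, 5.46, and 5.38 FPKM in the controls and 6.45, 6.39, and 5.72 FPKM in the null libraries. *Hsf4*, a lens heat shock factor, had 0.492 FPKM in control 2 and 0.506 FPKM in null 2 against 0.334 to 0.433 FPKM in the other 4 libraries, a much smaller range than that of *Cryaa*. Among 8 other small heat shock protein genes, relatives of the alpha crystallins, 7 were tested and 0 passed. *Hspb6*, the highest of them by its mean and in all libraries but null 3, had 21.6, 25.5, and 22.2 FPKM in the controls and 26.4, 20.6, and 15.6 FPKM in the null libraries.

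Cells of the retina that can express crystallins were read in the same way. Of 10 Muller glia genes, 0 passed the adjusted threshold and 3 had an unadjusted p under 0.05 by limma. Their sum over the 10 genes was 873 to 962 FPKM in the controls and 1002 to 1059 FPKM in the null libraries. *Clu*, which encodes the secreted chaperone clusterin, had 21.2, 32.8, and 17.0 FPKM in the controls and 34.7, 24.3, and 27.4 FPKM in the null libraries. Like *Cryab*, it was highest in null 1 and then control 2. The same held for *Glul*, *Slc1a3*, and *Aqp4* of that list, but not for *Rlbp1*, *Apoe*, *Dkk3*, *Vim*, *Kcnj10*, or *Car2*. Of 8 stress heat shock genes, 0 passed. Astrocyte, surface epithelial, and pigment cell lists also had 0 calls. However, 5 of 9 pigment cell genes had an unadjusted p under 0.05 by limma, against 8.15% of all genes tested. The pigment cell sum was 13.4 to 24.4 FPKM in the controls and 26.4 to 44.4 FPKM in the null libraries. Of 7 fibroblast genes 2 rose, *Fbln2* and *Col1a2* (limma), and the summed level of that list was 4.58 to 5.74 FPKM in the controls and 11.5 to 11.7 FPKM in the null libraries. Of 10 retina genes, *Opn1sw*, the short-wave cone opsin, rose and no other passed, and *Rcvrn*, the photoreceptor protein recoverin, had 105 to 224 FPKM. The sums of the pigment cell and fibroblast lists did not overlap between genotypes. Those of the Muller glia, surface epithelial, stress heat shock, and regulator lists did not overlap either. Single genes made up a large part of these sums, so they say little of the other genes. *Pax6* had 206 to 208 FPKM in the controls and 233 to 243 FPKM in the null libraries. *Apoe* had 272 to 301 and 356 to 388 FPKM, and *Hsp90aa1* had 369 to 394 and 337 to 373 FPKM. For stress heat shock the gap was narrow, 507.26 FPKM in the lowest control against 507.11 FPKM in the highest null library. The retina sums overlapped, at 2388 to 2809 FPKM in the controls and 2264 to 2652 FPKM in the null libraries. No such share was worked out for lists of other genes. The part of these cells in the crystallin levels was not tested.

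Most genes named crystallin that lie outside the lens families varied little, with *Aim1l* as the exception. *Crym*, a thyroid hormone binding protein, had 168 to 214 FPKM over the 6 libraries. *Cryz* (8.13 to 10.3 FPKM), *Cryzl1* (26.1 to 36.3 FPKM), and *Cryl1* (2.26 to 2.87 FPKM) encode enzymes or enzyme-like proteins, and none had control 2 and null 2 as its highest pair. *Crybg3*, a large protein with betagamma-crystallin domains, had 8.88 to 10.2 FPKM. *Aim1* and *Aim1l* are the symbols in the table for the other genes of that group. *Aim1* had 0.174 to 0.257 FPKM and *Aim1l* 0.0731 to 0.501 FPKM, 6.86 times from lowest to highest and a wider ratio than those of *Cryba2* and *Crybb1*.

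Among genes outside the family that averaged 1 FPKM or more and had a range of at least 1 on the log2 scale (614 genes), the 10 whose log2 values were most like the members' mean included *C1qtnf6*, *Dync1h1*, *Gstt1*, *Alg3*, *Fabp4*, *Mrm1*, *Cpne2*, and *Pax8*, with r from 0.966 to 0.784 over the 6 libraries. *C1qtnf6*, which encodes a secreted protein of the C1q and TNF-related family, had 2.32, 5.30, and 2.38 FPKM in control 1 to 3 and 2.48, 4.44, and 2.14 FPKM in null 1 to 3. *Dync1h1*, the heavy chain of cytoplasmic dynein, had 65.2, 122, and 66.6 FPKM in the controls and 106, 135, and 61.9 FPKM in the null libraries. Both had the pair on top, as did the others named except *Fabp4*, but over narrower ranges than *Cryaa*. These genes were picked for their likeness, so the r values are a description of the ranking.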

How the data were processed

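The analysis covered 6 libraries at P7, 3 control and 3 *Lhx4* null, each from 1 mouse according to the methods. Per the labels and the methods, the authors mapped paired-end reads with TopHat2 on GRCm38 and used Cufflinks for expression. The deposited table gives FPKM for each gene, which the authors scaled to transcript length and library depth. The annotation, program versions, and strand setting are not given in the sources used here. FPKM are not counts, so log2(FPKM + 0.1) was fitted with limma 3.58.1 in R 4.3.3 (lmFit, eBayes with trend, no block) for the 15200 genes averaging 0.1 FPKM or more, and two-sided p-values were adjusted over them (Benjamini-Hochberg). Fold changes on this scale understate those of low genes. Confidence intervals of 95% used the moderated degrees of freedom. Relative depth and fragments came from the step size of low values, and fragments were accepted within 0.15 of a whole number for 5 of 16 crystallin genes tried. The total count per library is unknown, and 0 columns were left unused. Fit and depth steps were tested on simulated data. Positions are from GENCODE vM21 and promoters from RefSeq, GRCm38.p6. Plots used matplotlib 3.10.9 in Python 3.11.15.

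The members, lists, and tests were chosen with earlier results of these data known. The genes named were the members, the rest of the crystallin family, small heat shock genes, the 10 genes most like the members, *Lhx4*, and examples of each list. Of the genes that this rule names, some are not reported here. The Y-linked genes, *Bhlhe23*, *Rcvrn*, *Maf*, *Hsf4*, *Clu*, and *Opn1sw* were singled out once their values were known. Results were recomputed with pseudocounts of 1 and 0.01 FPKM, with no filter or one at 1 FPKM, with median of ratios or quantile scaling, without the trend, with the replicate block, and without each library. Leaving out control 2 and null 2 together was added after seeing the data.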

Additional observations from a re-analysis of the deposited data

How the results depend on the processing

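Over the 15 alternatives, 0 members passed the adjusted threshold in any of 145 fits, with a lowest adjusted p of 0.484 by limma. The count of all genes called, 34, was 0 without a filter on low values (1507 genes had an unadjusted p under 0.05), 1 with control 2 and null 2 left out together, and 15 to 31 with 1 library left out. With the replicate number as a block it was 15. The labels state no pairing by number. Same-numbered libraries had correlations of -0.13, -0.0002, and 0.16 in their deviations. With 3 libraries per genotype these cannot settle whether the numbers pair the samples. In the members' mean profile, libraries 2, 1, and 3 stood in that order from high to low in both genotypes. The block called 0 members. With it, 1 of the 10 had an unadjusted p under 0.05, against 1162 of 15200 genes. This was *Cryba1* (-0.91, interval -1.49 to -0.33, adjusted p = 0.484 by limma). With 1 library left out, the members' median log2 fold change ran from -0.38 to 0.54, the number higher in the libraries labelled *Lhx4* null from 2 to 9, the number without overlap from 0 to 2 (2 without control 2, against 27.8% of all genes, and 1 without null 2, against 20.1%), and the median pairwise r from 0.642 to 0.902. With both libraries left out, 4 members had no overlap, against 37.1% of all genes, and the median r was 0.304. The cause of these shifts was not tested. The direction of single members was not stable: 7 of 10 reversed without at least 1 library. The ranges were -1.29 to 1.57 for *Cryaa*, -0.10 to 0.28 for *Cryab*, -0.61 to 0.43 for *Cryba2*, -0.55 to 0.65 for *Cryba4*, -0.27 to 0.72 for *Crybb1*, -1.48 to 0.21 for *Crybb2*, and -0.21 to 2.39 for *Crygb*. *Cryaa* also reversed with a pseudocount of 1 FPKM (-0.17), and *Cryba2* (0.0090) and *Cryba4* (0.27) with both libraries left out. Without total counts, the depth limits the low gamma values in the shallower null libraries most.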
